A study of Mus musculus with 6 samples.

Results

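Imprinted genes are expressed from only 1 of the parental chromosomes, and 10 of them were followed here through loss of the nerve supply to a calf muscle: H19, Meg3, Rian, Cdkn1c, Grb10, Peg3, Dlk1, Plagl1, Mest and Ndn. They were taken from the deposited table by gene name, and all 10 have a row among its 22187. The set was drawn up with the denervated and control levels of these same libraries known, so the members' differences between the groups are a description and carry no p-value. The denervated group was 3 male C57BL/6J mice aged 12 weeks operated on 2 weeks before the left gastrocnemius was taken, when 2 mm of the sciatic nerve on that side was cut out. The control group was 3 normal male mice of the same strain and age, with the same muscle taken. Controls are described as normal rather than sham-operated, so surgery and loss of the nerve cannot be told apart. The RNA is that of the whole muscle, and every library is from 1 mouse.

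In an imprinted region a control element, methylated on 1 parental copy in the germ line, governs which copy of several neighbouring genes is expressed. Many of these genes govern fetal growth, are abundant in embryonic muscle and are turned down together after birth, and H19 is the best known of them in muscle. By the imprint known in mouse, H19, Meg3, Rian, Cdkn1c and Grb10 (in most tissues) are expressed from the maternal chromosome and Peg3, Dlk1, Plagl1, Mest and Ndn from the paternal one. The libraries carry no allelic information, so no level below says which chromosome it came from.

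H19, Meg3 and Rian are long non-coding RNAs that carry microRNAs, short RNAs which pair with target mRNAs through a seed. The mature forms of 1 microRNA per host are shown, as examples of what these hosts could release. RefSeq also places miR-1906 in Meg3, miR-341 and miR-1188 in Rian and miR-335 in Mest, which are not shown. In the GENCODE M21 annotation (GRCm38), H19 lies on chromosome 7 at 142575529 to 142578143, minus strand, with miR-675 in an exon. Meg3 (chromosome 12, 109541001 to 109571726, plus strand) and Rian (chromosome 12, 109603940 to 109661716, plus strand) follow each other, with miR-770 in an exon of Meg3 and miR-370 in an intron of Rian. Levels of the mature microRNAs were not analysed here. The sequences of those shown, from RefSeq (GRCm38.p6), 5′ to 3′ with the seed, bases 2 to 8, in capitals, are as follows. No 2 of the 6 share a seed.
mmu-miR-675-5p: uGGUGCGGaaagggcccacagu
mmu-miR-675-3p: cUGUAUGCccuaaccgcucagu
mmu-miR-770-5p: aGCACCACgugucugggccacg
mmu-miR-770-3p: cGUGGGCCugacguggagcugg
mmu-miR-370-5p: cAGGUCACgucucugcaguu
mmu-miR-370-3p: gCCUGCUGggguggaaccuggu

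RefSeq promoter windows, 250 bases before to 50 after a transcript start, were matched by symbol for 8 of the 10 genes, with 12 windows in all. H19 and Cdkn1c have no entry. The windows of Peg3 and Meg3 are shown as those of the protein-coding gene with the largest difference upward and of a gene with a difference downward. Capitals mark matches on either strand to GGGGCCCC, a sequence bound by the Plagl1 protein in reported work, to TATAAA, the core of the TATA box, and to CAGCTG, an E-box bound by myogenic factors. The Peg3 window (chr7:6730370-6730669, minus strand, GRCm38.p6) holds GGGGCCCC starting 201 bases before the start, which 1.08% of all 32851 windows of this length hold.
Peg3: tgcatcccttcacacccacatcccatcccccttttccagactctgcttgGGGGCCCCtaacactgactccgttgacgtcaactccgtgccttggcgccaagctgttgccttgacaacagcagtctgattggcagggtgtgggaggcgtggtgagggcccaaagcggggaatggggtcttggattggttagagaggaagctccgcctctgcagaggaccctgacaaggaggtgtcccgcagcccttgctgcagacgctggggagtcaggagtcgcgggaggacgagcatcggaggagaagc
The Meg3 window (chr12:109540746-109541045, plus strand, GRCm38.p6) holds overlapping matches to TATAAA on both strands, beginning 29 and 25 bases before the start, and 13.6% of all windows hold this motif. A second Meg3 window (chr12:109545148-109545447, plus strand), not shown, has 1 CpG site and none of the 3 motifs.
Meg3: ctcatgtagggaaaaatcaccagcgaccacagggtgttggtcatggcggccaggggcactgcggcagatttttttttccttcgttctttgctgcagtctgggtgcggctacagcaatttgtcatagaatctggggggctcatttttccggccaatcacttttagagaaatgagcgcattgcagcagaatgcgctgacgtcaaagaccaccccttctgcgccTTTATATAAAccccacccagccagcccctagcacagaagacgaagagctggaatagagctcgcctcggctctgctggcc
The windows shown here of Peg3 and Meg3 each have 13 CpG sites, more than 62.1% of all windows have, against a median of 7. Among the other windows, CAGCTG (in 16.3% of all windows) was found in 1 of the 3 of Mest alone.

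H19 was by far the most abundant of the genes and was 9.82 times as high in denervated as in control muscle. Levels are TPM, a share of transcripts corrected for their length, multiplied by 1 factor per library, so they can be compared between genes. H19 stood at 2036, 2016 and 2536 in denervated muscle, against 190, 237 and 244 in controls. Every denervated mouse lay far above every control. The means were 2196 ± 295 and 224 ± 29.4 (SD, n = 3 each), a log2(level + 1) difference, denervated minus control, of 3.29 with a standard error (SE) of 0.140. Of all rows in the table, H19 ranked 33 to 36 by level in the denervated libraries and 140 to 169 in the controls. Among the 1279 rows classed as lincRNA it ranked first in each denervated library and 2 or 3 in the controls. It made up 46.0%, 43.3% and 49.9% of the summed lincRNA level in denervated muscle and 7.56%, 9.72% and 10.1% in controls. In whole muscle, a changed number of cells of a type and a changed amount of RNA per cell cannot be told apart.

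Meg3 and Rian went the other way. Meg3 stood at 3.89, 3.63 and 4.29 in denervated muscle and at 6.96, 6.53 and 13.8 in controls, where control 3 stood well above the others. The groups did not overlap, and the log2 difference was -0.96 (SE 0.241), or -0.65 without control 3. Rian, the next transcript of the same cluster and host of small nucleolar RNAs, stood at 0.860, 0.988 and 1.04 in denervated muscle against 3.09, 3.72 and 2.75 in controls. That is 0.302 times the control mean, a log2 difference of -1.09 (SE 0.110) without overlap. The ratio of Meg3 to Rian within a library was 4.52, 3.68 and 4.14 in denervated mice and 2.26, 1.76 and 5.0 in controls, so the groups overlapped in it because of control 3. This ratio was chosen after the values were seen.

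**Figure D1:**
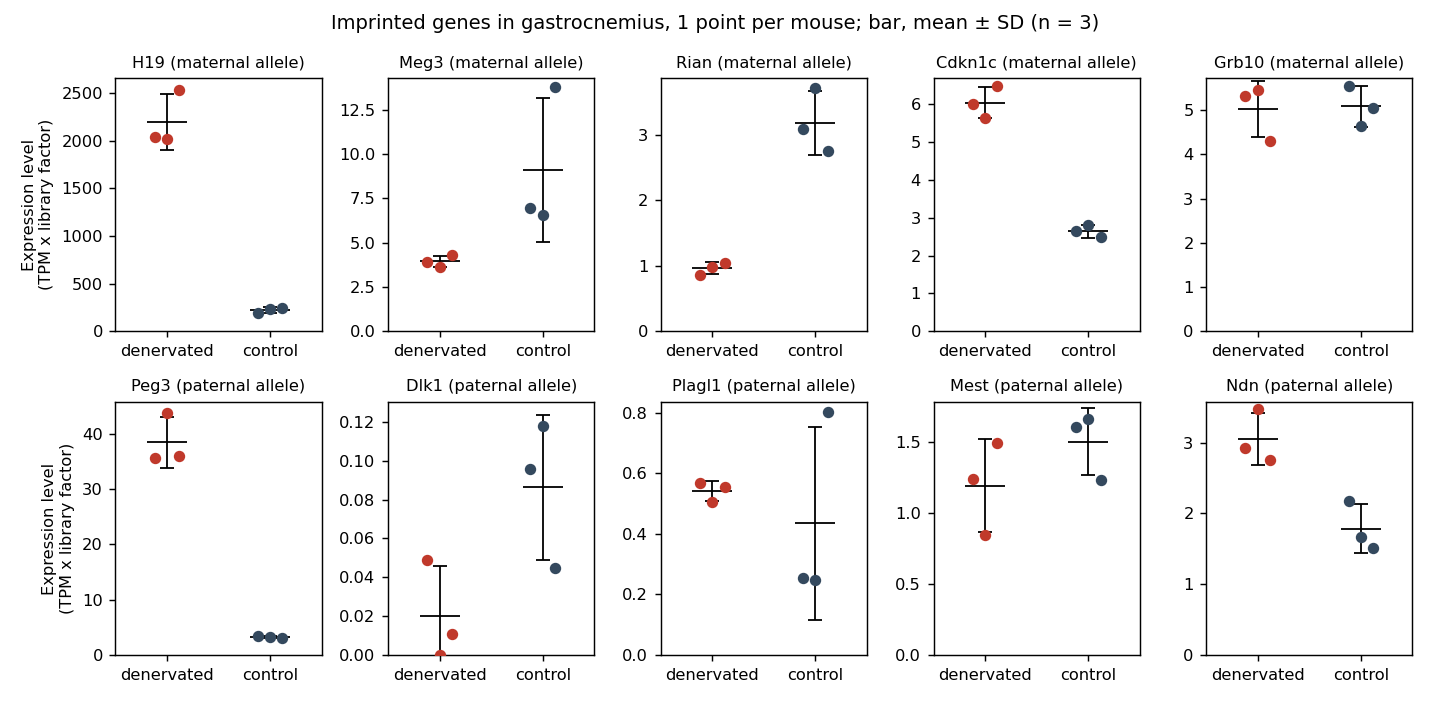
Level (TPM multiplied by a library factor, linear axes from 0) of the 10 imprinted genes in each mouse, denervated left of control. Points are mice and the bars are mean ± SD of 3 mice. H19 and Peg3 were 9.82 and 12.0 times as high in denervated muscle, Cdkn1c and Ndn were higher without overlap, Meg3 and Rian were lower without overlap, and Grb10, Dlk1, Plagl1 and Mest overlapped.

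Growth restrainers differed between themselves. Cdkn1c encodes p57, an inhibitor of cyclin-dependent kinases that stops cell division in differentiating muscle. Its level was 6.00, 5.65 and 6.49 in denervated muscle and 2.64, 2.82 and 2.48 in controls, with no overlap, a ratio of 2.29 and a log2 difference of 0.95 (SE 0.091). Grb10 encodes an adaptor that dampens insulin and IGF1 receptor signalling. It stood at 5.32, 5.45 and 4.30 in denervated muscle against 5.55, 4.64 and 5.05 in controls. The groups overlapped throughout, with a log2 difference of -0.018 (SE 0.111).

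Peg3, a large zinc finger protein that marks a population of interstitial progenitor cells in mouse muscle and acts in p53 and TNF signalling, had the largest ratio of the set. It stood at 35.6, 43.7 and 36.0 in denervated muscle and at 3.33, 3.23 and 3.06 in controls. The denervated mean was 12.0 times the control mean, with a log2 difference of 3.22 (SE 0.103), and its rank among all rows was 744 by the denervated mean and 6287 by the control mean. Plagl1 encodes a zinc finger factor reported to regulate other imprinted genes, H19 and Cdkn1c among them. It was low, at 0.567, 0.504 and 0.556 in denervated muscle and 0.255, 0.247 and 0.801 in controls. Control 3 lay above all denervated mice and the other controls lay below them, so the groups overlapped, and the log2 difference of 0.13 (SE 0.149) became 0.30 without control 3.

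Among the other paternally expressed genes, Ndn was higher, and Mest and Dlk1 overlapped between groups. Ndn encodes necdin, which promotes the differentiation and survival of myoblasts. Its level was 2.92, 3.47 and 2.76 in denervated muscle and 2.17, 1.67 and 1.51 in controls, without overlap (log2 difference 0.54, SE 0.121). Mest, a hydrolase of the endoplasmic reticulum membrane, stood at 1.24, 0.844 and 1.5 in denervated muscle and at 1.61, 1.67 and 1.23 in controls. Dlk1, a transmembrane relative of Notch ligands that limits adipocyte formation and supports muscle growth in the young, was at the edge of what the table records. It was 0.049, listed at 0, and 0.011 in denervated muscle against 0.096, 0.118 and 0.045 in controls.

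Dlk1 did not pass the level filter of 0.5 in at least 3 of the 6 libraries, and Plagl1 passed it through the 3 denervated mice and control 3. Of the 9 genes that passed, 4 were higher and 2 lower in denervated muscle without overlap between the groups. Over all 12392 rows that passed, the groups lay apart upward for 27.8%, downward for 29.7% and either way for 57.5%. Since the genes were chosen on this contrast, nothing is read from their share. The median log2 difference of the 9 was 0.13, beside -0.01 over all tested rows.

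The way libraries are scaled shifts these differences together. With equal totals of protein-coding transcripts the median of all tested rows moved from -0.01 to 0.60, and when the 20 highest rows were kept out of the totals it moved to 0.23. H19, Peg3, Cdkn1c and Ndn stayed above 0 and Meg3 and Rian below 0 under all 5 other scalings. Equal protein-coding totals gave 4.18 for H19, 3.99 for Peg3, 1.65 for Cdkn1c, 1.16 for Ndn, -0.20 for Meg3 and -0.53 for Rian. Grb10 turned positive under equal column totals (0.056), totals without the abundant rows (0.27) and equal protein-coding totals (0.73), the last close to the median of all rows. Mest turned positive under the same last pair of scalings (0.0015 and 0.31).

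**Figure D2:**
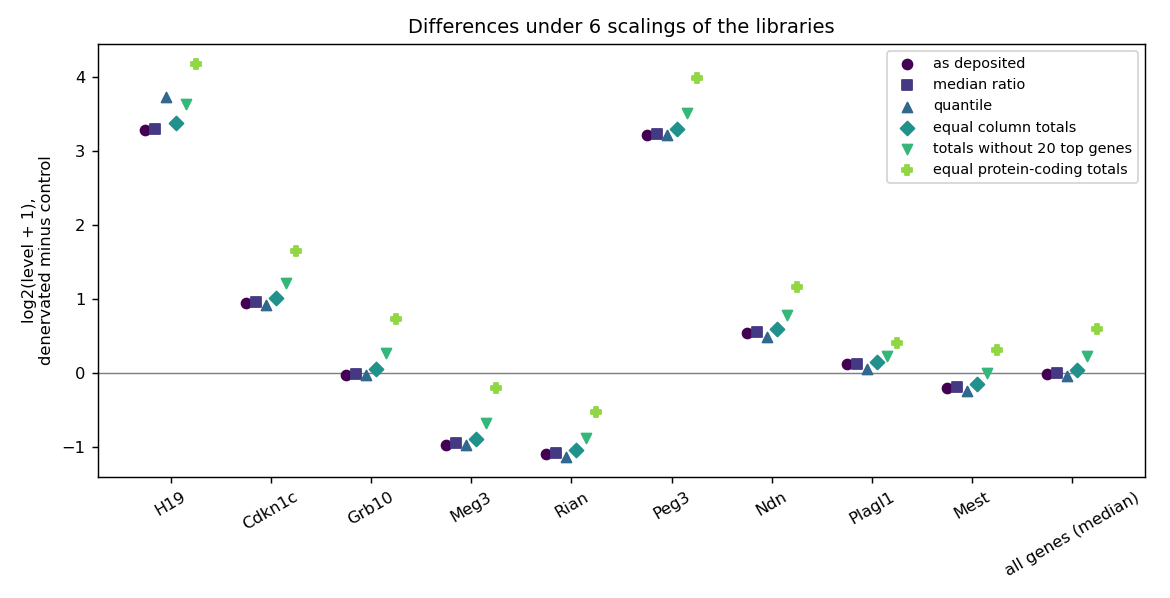
Difference in log2(level + 1), denervated minus control, of the 9 genes past the level filter and the median of all tested genes, each under 6 scalings marked by symbol and colour. H19 and Peg3 stayed above 3 in every scaling, Meg3 and Rian stayed below 0, and Grb10 and Mest crossed 0.

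Of 7 tested flanking genes in the H19 domain, Igf2 not among them, 2 rose and 3 fell, none by as much as H19 differed. That is 28.6% and 42.9%, beside 22.9% and 24.3% of all tested rows. Igf2, the growth factor gene that is expressed from the paternal copy and competes with H19 for enhancers, lies 72.6 kb from H19 in GRCm38. It stood at 2.81, 2.68 and 4.37 in denervated muscle and at 2.61, 2.02 and 2.82 in controls, with overlap (log2 difference 0.29, SE 0.167, limma adjusted p = 0.197). Totals without the abundant rows and equal protein-coding totals gave Igf2 an adjusted p of 0.0238 and 0.0011. Nctc1, a muscle non-coding RNA 16.9 kb from H19 whose locus holds a shared muscle enhancer, fell to 11.1, 12.5 and 12.4 in denervated muscle, against 31.0, 32.9 and 34.6 in controls (log2 difference -1.38, limma adjusted p = 1.59e-05). Within a library, the ratio of H19 to Igf2 was 580 to 753 in denervated mice and 72.8 to 117 in controls. The ratio of H19 to Nctc1 was 161 to 205 in denervated mice and 6.13 to 7.19 in controls. Both ratios were chosen after the values were seen.

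In the same region of chromosome 7, the fast troponin genes Tnnt3 and Tnni2, which also stand on the myofibre marker list below, fell, with levels of 1279 ± 56.3 and 1220 ± 137 in denervated muscle and 3987 ± 483 and 3671 ± 421 in controls (limma adjusted p = 2.93e-05 and 5.72e-05). Tspan4 rose (log2 difference 0.57, adjusted p = 0.0196), although leaving out control 2, control 3, denervated 1 or denervated 3 ended the call, with an adjusted p of 0.0501, 0.0631, 0.0706 and 0.0667. Ctsd, a lysosomal protease named after its values were seen, rose to 353, 346 and 429 in denervated muscle, against 221, 266 and 293 in controls (log2 difference 0.53, limma adjusted p = 0.0137). Lsp1 had a log2 difference of -0.18 (adjusted p = 0.151).

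Beside Meg3 and Rian, the host RNA Mirg, 68.0 kb beyond Rian, stood at 0.205, 0.196 and 0.203 in denervated muscle and at 0.553, 0.462 and 0.542 in controls. The groups lay apart, but Mirg missed the level filter and was not tested. The paternally expressed genes of this cluster were near 0 throughout. Rtl1 stood at 0.051 to 0.059 in denervated muscle and 0.054 to 0.124 in controls, and Dio3, which inactivates thyroid hormone, at 0.128 to 0.215 in denervated muscle and 0 to 0.169 in controls. Outside the imprinted cluster, Dync1h1, a dynein heavy chain, rose to 31.3 ± 0.217 in denervated muscle against 18.5 ± 1.69 in controls (limma adjusted p = 0.000409), and Wars had a log2 difference of -0.0020 (adjusted p = 0.992).

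Next to Peg3, the maternally expressed zinc finger gene Zim1, 7.4 kb away, rose to 2.42, 3.84 and 2.53 in denervated muscle, against 0.298, 0.462 and 0.305 in controls. All denervated values lay above all controls (log2 difference 1.52, SE 0.146, limma adjusted p = 0.000115). Zim1 passed the level filter through the denervated mice alone, so it could only be tested because it is high there. Usp29, which starts 0.1 kb from Peg3 on the opposite strand, stood at 0.078, 0.072 and 0.011 in denervated muscle and was listed at 0 in all 3 controls.

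Snrpn, a small nuclear ribonucleoprotein gene in the imprinted region that also holds Ndn, fell to 4.82, 5.72 and 5.98 in denervated muscle, against 21.05, 21.5 and 20.8 in controls (log2 difference -1.77, SE 0.095, limma adjusted p = 7.28e-06). It lies 2206.3 kb from Ndn in GRCm38. Copg2, which encodes a coat protein subunit and overlaps Mest on the opposite strand, rose to 5.45 ± 0.813 in denervated muscle against 3.41 ± 0.329 in controls (limma adjusted p = 0.00679). The sources used here do not give strandedness, so reads of the overlapping ends of Mest and Copg2 cannot be assigned. Near Plagl1, Stx11 and Sf3b5 rose and Phactr2 fell. Stx11, a syntaxin, stood at 1.86 ± 0.548 in denervated muscle and 0.0323 ± 0.0215 in controls, and passed the filter through the denervated mice alone. Leaving out control 2 (adjusted p = 0.0578), denervated 1 (0.055) or denervated 3 (0.0528) ended the call of Sf3b5, and Phactr2 (log2 difference -0.56) was positive (0.12) when protein-coding totals were made equal. Of 23 tested flanking genes, 6 rose and 7 fell, with a median log2 difference of -0.16. They belong to the H19 (7), Meg3 (6), Plagl1 (6) and Ndn (4) domains. The flanking genes listed for Mest, Grb10 and Peg3 missed the level filter, and none was listed for Cdkn1c. Over all 12392 tested rows the limma test called 22.9% higher, 24.3% lower and 47.3% either way at an adjusted p below 0.05.

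**Figure D3:**
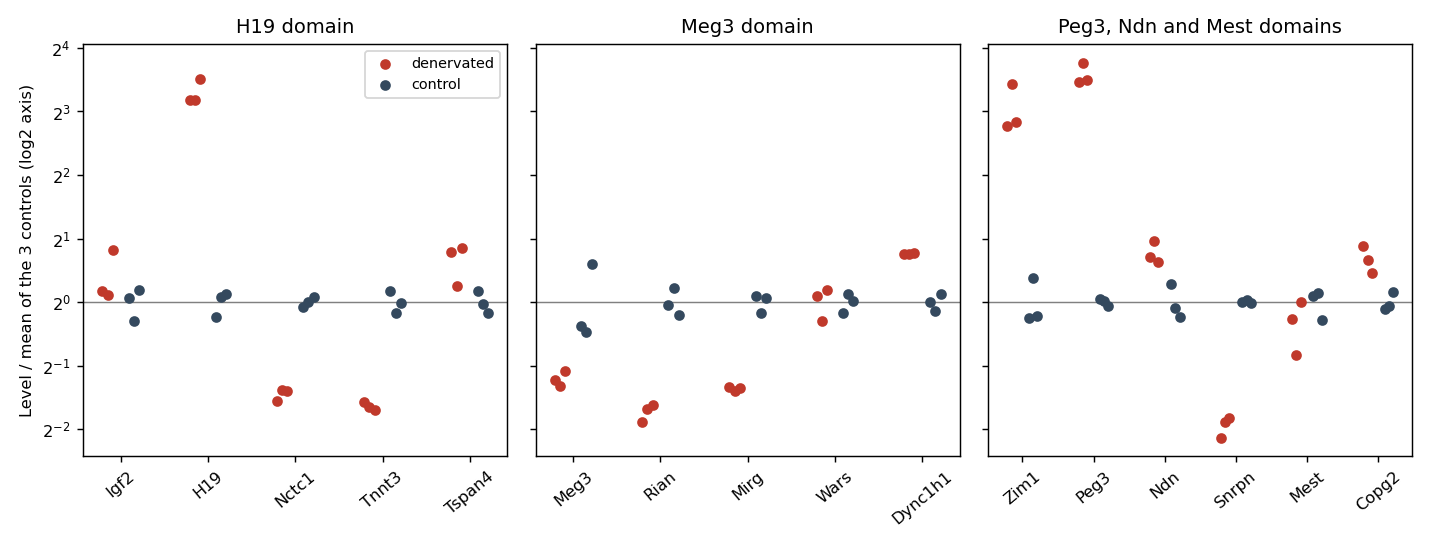
Level in each mouse divided by the mean of the 3 controls (log2 axis), denervated points left of control points, for genes of the H19, Meg3, Peg3, Ndn and Mest domains. H19 lay far above its control mean beside Igf2, whose groups overlapped, and Nctc1, which was lower, Peg3 and Zim1 were high together, and Meg3, Rian and Mirg were low together.

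Imprinted genes outside the set did not all move one way. Of 32 genes listed as imprinted in many mouse tissues, 26 have a row and 14 passed the level filter. Of these, 6 rose and 2 fell, or 42.9% and 14.3% beside the 22.9% and 24.3% of all rows, with a median log2 difference of 0.29. This list, like the other lists here, was chosen with earlier results of these data known, so its shares are a description. Igf2r, the receptor that clears IGF2 and sorts lysosomal enzymes, rose to 21.4, 21.7 and 22.3 in denervated muscle, against 10.6, 10.9 and 10.2 in controls, without overlap (log2 difference 0.98, SE 0.077, limma adjusted p = 4.3e-05). Nnat, a small membrane protein, rose to 1.97, 2.65 and 3.22 in denervated muscle, against 1.00, 1.04 and 0.745 in controls (limma adjusted p = 0.00153). Airn, the non-coding RNA that runs antisense through Igf2r, rose as well, at 8.96 ± 1.14 in denervated muscle and 5.59 ± 1.80 in controls. Leaving out control 2 (adjusted p = 0.0782), control 3 (0.0822), denervated 2 (0.0648) or denervated 3 (0.0897) ended that call, and reads of Airn and Igf2r cannot be separated where they overlap. The other genes that rose were Zim1, Zdbf2 and Impact. Zim1 and Zdbf2 passed the level filter through the denervated mice alone, which adds to the higher share by construction.

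Slc38a4, an amino acid transporter, fell beside Snrpn, at 11.4, 10.6 and 10.9 in denervated muscle and 13.7, 14.4 and 18.3 in controls (log2 difference -0.45, limma adjusted p = 0.0154), but stood at 0.39 with equal protein-coding totals. Among those not called were H13, a signal peptide peptidase, and Sgce, the epsilon sarcoglycan. H13 stood at 12.0 ± 2.16 in denervated muscle and 9.86 ± 1.14 in controls. Sgce, at 1.05 ± 0.206 and 1.75 ± 0.512, had an adjusted p of 0.0539 that was 0.0186 without control 2. Peg10 missed the filter at 0.171 to 0.247 in denervated muscle and 0.147 to 0.172 in controls. By expressed allele, 2 of 3 tested maternally expressed genes rose and 0 fell, and 4 of 11 paternally expressed genes rose and 2 fell. With equal protein-coding totals 11 of the 14 were higher and 1 lower.

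**Figure D4:**
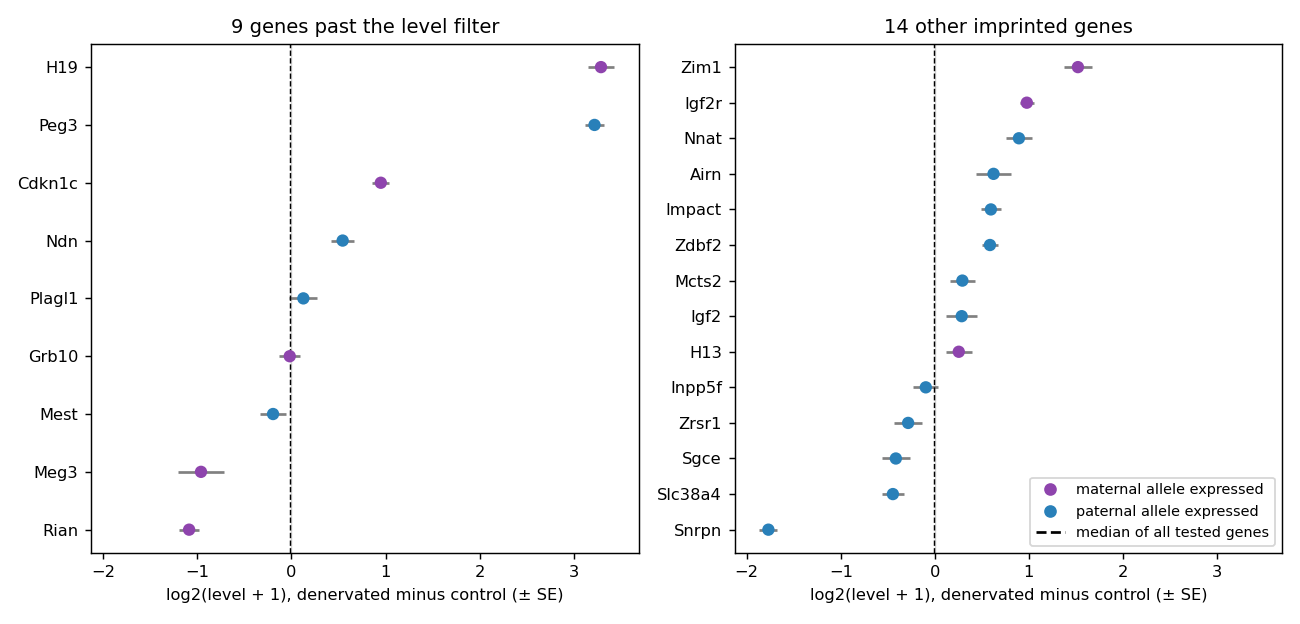
Difference in log2(level + 1), denervated minus control, with its SE (n = 3 mice a group), for the 9 genes past the level filter (left) and 14 other genes imprinted in many tissues (right), coloured by the allele that is expressed. The dashed line is the median of all tested genes, -0.01. H19 at 3.29 and Peg3 at 3.22, which were chosen with this contrast known, lay above every gene of the right panel, whose highest was Zim1 at 1.52. Genes imprinted only in some tissues are not drawn, and of these Tnfrsf23 stood at 3.07, with 20.9 times the control mean in denervated muscle.

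Genes imprinted only in some tissues, mostly placenta or brain, were called about as often as the table as a whole. Of 22 tested, 5 rose and 6 fell (22.7% and 27.3%), with a median log2 difference of 0.07. Tnfrsf23, a decoy receptor for the death ligand TRAIL in mouse, rose to 9.84, 13.4 and 14.6 in denervated muscle, against 0.724, 0.591 and 0.496 in controls (log2 difference 3.07, limma adjusted p = 4.4e-06). Osbpl5, a lipid transfer protein gene of the Cdkn1c region, rose to 11.8 ± 0.458 in denervated muscle, against 2.81 ± 0.154 in controls, and Pon2 and Cobl rose by less (log2 differences 0.74 and 0.69). Asb4, a ubiquitin ligase adaptor, fell to 0.382 ± 0.141 in denervated muscle, against 2.06 ± 0.198 in controls. Pon3, Dcn, Nap1l4 and Gnas, the gene of the stimulatory G protein, fell too, with log2 differences of -0.85, -0.66, -0.52 and -0.36. With equal protein-coding totals Pon3 was at -0.035 (adjusted p = 0.769) and Dcn, Nap1l4 and Gnas stood at 0.23, 0.35 and 0.54. Cd81 and Commd1 were not called (0.13 and -0.16).

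Of the machinery that reads and keeps imprints, 25 genes were tested, of which 3 rose and 8 fell (12.0% and 32.0%, median log2 difference -0.20). Dnmt3a, a DNA methyltransferase that sets imprints in germ cells, fell to 3.91 ± 0.0826 in denervated muscle, against 10.4 ± 2.03 in controls (log2 difference -1.20, limma adjusted p = 0.000207). Ezh2, the methylating subunit of Polycomb complex PRC2, had a log2 difference of -0.80, and the demethylase Tet1 had -0.50. Both were no longer called with equal protein-coding totals (adjusted p = 0.335 and 0.131), and Tet1 passed the filter through the controls alone. Stag2, a cohesin subunit, stood at -0.61 and turned positive (0.16) under those totals. Tet2 and the histone methyltransferase Ehmt2 rose (log2 differences 0.56 and 0.87), and Trim28, a corepressor at imprinting control regions, stood at 0.36 with a call that ended when control 2 (adjusted p = 0.059), control 3 (0.0534) or denervated 1 (0.0515) was left out. Mbd3 (0.34) and Ezh1 (-0.08) were not called, and Mbd3 had an adjusted p of 0.00869 without control 3 and below the threshold in all 5 other scalings.

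Of 20 tested genes that act with Cdkn1c in the cell cycle, 6 rose and 2 fell (30% and 10%). Cdkn1a, which encodes the related inhibitor p21, rose to 27.4 ± 4.81 in denervated muscle, against 1.07 ± 0.312 in controls (log2 difference 3.78, limma adjusted p = 2.57e-06). Rb1, the retinoblastoma protein, rose to 17.8 ± 1.83 in denervated muscle, against 3.72 ± 0.586 in controls, and E2f2 and E2f1 had log2 differences of 0.88 and 0.65, where E2f2 passed the filter through the denervated mice alone. Of 8 proliferation markers, 4 were tested and 0 called. Among the 4 under the filter, Mki67 and Mcm6, named after their values were seen, lay apart upward. Mki67 stood at 0.068, 0.278 and 0.075 in denervated muscle and 0.053, 0.054 and 0.034 in controls, and Mcm6 at 0.254, 0.278 and 0.171 in denervated muscle and 0.085, 0.107 and 0.124 in controls. Cdkn2d and the cyclin Ccnd2 stood at -0.34 and -0.29. The call of Ccnd2 was lost without any 1 of the 6 libraries (adjusted p of 0.0509 to 0.135), and equal protein-coding totals made both positive (0.29 and 0.18). Cdk4 and Rbl2 were not called (0.053 and -0.27).

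In the Notch pathway, to which Dlk1 is related, 6 of 24 tested genes rose and 7 fell (25.0% and 29.2%). Hes6, a basic helix-loop-helix factor, rose to 17.2 ± 0.499 in denervated muscle, against 1.39 ± 0.0722 in controls. Numbl, a Notch antagonist, the ligand Dll1 and the target Hes1 rose with log2 differences of 1.57, 1.32 and 1.23. Notch4, Dll4, Notch3 and Hey1 stood at -0.77, -0.73, -0.41 and -0.38. Leaving out either of controls 1 and 2 or of denervated 1 and 3 ended the call of Dll4 (adjusted p of 0.054 to 0.0863), as leaving out either of controls 1 and 2 or of denervated 1 and 2 did for Hey1 (0.0824 to 0.132), and equal protein-coding totals made Notch3 and Hey1 positive (0.26 and 0.059) and left Notch4 at -0.091 (adjusted p = 0.626) and Dll4 at -0.17 (adjusted p = 0.546). Only 3 or 4 Notch genes fell without control 1, control 2, denervated 1 or denervated 2. Adam17 was not called (-0.19).

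Among 14 tested insulin and IGF genes around Grb10, Igf2 and H19, 6 rose and 3 fell (42.9% and 21.4%). Grb14, the close relative of Grb10, fell to 2.35 ± 0.840 in denervated muscle, against 11.3 ± 0.751 in controls (log2 difference -1.90, limma adjusted p = 9.02e-05). Igf1 and Irs1 stood at -0.80 and -0.76, and were not called with equal protein-coding totals (adjusted p = 0.0704 and 0.842). Sh2b1, Shc1, Khsrp and Igf2bp2 rose by 0.81, 0.61, 0.48 and 0.67 on the log2 scale. Igf2bp2, a protein that binds Igf2 and H19 RNA, stood at 1.06 ± 0.216 in denervated muscle and 0.291 ± 0.0482 in controls. Igf2bp2 and Sh2b2, another of the 6, passed the filter through the denervated mice alone. Insr and Grb2 were not called (0.042 and 0.094).

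The tested genes with profiles nearest to H19 over the 6 libraries were Tiam2, a Rac activator, Hspb8, a small heat shock protein, and Mfsd7a, a transporter family member. The measure was the root mean square difference between row-centred log2(level + 1) profiles, which came to 0.0818, 0.121 and 0.132. Hspb8 stood at 607, 523 and 657 in denervated muscle and at 61.9, 68.3 and 70.9 in controls. The denervated mean was 17.4, 8.88 and 35.4 times the control mean for Tiam2, Hspb8 and Mfsd7a, against 9.82 for H19. The pseudocount of 1 understates the changes of Tiam2 and Mfsd7a, whose control means were 1.04 and 0.292. Mfsd7a passed the level filter through the denervated mice alone. Much of any such likeness is the difference between the groups itself.

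Cell type markers moved with the groups, and their part in the values above was not tested. The marker sums and counts are for the levels as deposited and were not repeated under the other scalings. Of the markers also named above, Dcn turned positive (0.23) with equal protein-coding totals, and Tnnt3 and Tnni2 kept their calls. Markers of the myofibre, which define the labelled tissue, summed to 12531 to 15052 in denervated muscle and 36281 to 40906 in controls, with 1 of 10 higher and 9 lower. Most of these are fast-fibre genes and none is a slow-fibre gene, so the sum does not stand for all myofibre RNA. The 1 higher was Myh2, at 281 ± 40.5 in denervated muscle and 175 ± 26.6 in controls. Satellite cell markers summed to 9.32 to 10.2 in denervated muscle and 6.01 to 7.17 in controls, with 3 of 5 tested higher and 1 lower, and Pax7 stood at 0.459 ± 0.0929 and 0.359 ± 0.0521. Macrophage markers summed to 52.8 to 62.8 in denervated muscle and 23.7 to 30.9 in controls (6 of 8 higher, 0 lower). Markers of fibro-adipogenic progenitors summed to 143 to 159 in denervated muscle and 205 to 232 in controls (0 of 10 higher, 6 lower). Lower sums were also found for endothelium (8 of 8 lower), pericytes and smooth muscle (7 of 8 lower), tenocytes (1 higher and 4 lower of 6) and Schwann cells (1 higher and 2 lower of 5). Adipocyte markers had 4 of 5 higher and 1 lower while their sum was lower, at 49.8 to 63.6 in denervated muscle and 96.2 to 120 in controls. The 1 lower marker, Fabp4, made up most of that sum, at 46.8 ± 8.08 in denervated muscle and 101 ± 11.4 in controls. Erythroid markers summed to 105 to 203 in denervated muscle and 32.8 to 483 in controls (0 of 5 higher, 1 lower), and 0 of 8 lymphocyte markers passed the level filter. No marker was at 0 in all 6 libraries.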

How the data were processed

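RNA of 6 whole gastrocnemius muscles, 3 denervated and 3 control, was sequenced with paired-end mRNA libraries, per the labels' protocols. The submitters' processing notes list Bowtie2 2.2.9, RSEM 1.3.0, edgeR 3.12.1 and NCBIM37, without roles. The deposited expression signal has no stated unit. Per column, 99.3% to 100% of values above 0 and under 100 lay within 0.00055 of whole multiples of 0.01 times a library factor (0.977 to 1.13), so the signal was read as TPM rounded to 0.01 and multiplied by that factor. TPM keeps no depth, so no counting interval is given.

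Rows at 0.5 or more in at least 3 libraries (12392) were compared on log2(level + 1) with limma 3.58.1 in R 4.3.3 (trend, 4 residual degrees of freedom, two-sided, Benjamini-Hochberg adjustment, threshold 0.05). The pseudocount of 1 understates changes of low genes. The exact permutation test of 3 against 3 cannot give p below 0.1. On simulated data with 12392 genes, 80 of 100 changes of 1 on the log2 scale and 100 of 100 changes of 2 were called, with 6 false calls. The changed genes were drawn from those with a mean control log2(level + 1) above 1, with independent normal noise. Far fewer genes changed there than were called in the data, so these rates need not hold for the data or for low genes. Members and lists were chosen with earlier results of these data known. Named genes were the 10 members, a fixed set of other imprinted and neighbouring genes (14 with a row), per list up to 4 called genes in each direction plus the 2 most abundant not called (1 of these is not reported here), and the 3 genes nearest to H19. Some genes stand on more than 1 list (Yy1, Dcn, Calcr, Heyl, Tnnt3, Tnni2). A symbol with several rows was taken at its most abundant row. None of 60 microRNA and small nucleolar RNA names of these loci was analysed here. Same-numbered mice did not deviate together (r = -0.0068, -0.099 and 0.019). GENCODE M21 matched 9 members by identifier and Rian by symbol. It gives annotation on GRCm38, not the submitters' build. Alternatives tried were 5 scalings, 2 filters, 2 pseudocounts, 2 variance models, a replicate block and single libraries left out.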

Additional observations from a re-analysis of the deposited data

How the results depend on the processing

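H19, Peg3, Cdkn1c, Ndn, Meg3 and Rian kept their direction under all 18 alternatives. The median over the 9 genes, 0.13 as given, was 0.037 to 0.30 when single libraries were left out, 0.73 with equal protein-coding totals, and 0.42 and 0.53 with pseudocounts of 0.1 and 0.01. The cause of other changes was not tested, apart from the shift of all genes that a scaling makes by construction. When the 20 highest rows were kept out of the totals, 4966 rows were higher and 1614 lower, against 2840 and 3017 as given. Higher and lower genes then numbered 10 and 3 for imprinted in some tissues, 7 and 3 for imprint regulators and 11 and 0 for cell cycle, with 1 lower for imprinted in many tissues, 1 for Notch and 4 for flanking genes. With equal protein-coding totals 9038 rows were higher and 668 lower. The lists then had 11 higher and 1 lower (imprinted in many tissues), 17 and 1 (some tissues), 19 and 1 (regulators), 17 and 0 (cell cycle), 16 and 0 (Notch), 11 and 1 (insulin and IGF) and 17 and 3 (flanking genes). Left-out libraries gave 2 to 4 lower genes imprinted in many tissues (4 without control 2), 1 in the cell cycle each time and 3 to 7 in Notch.

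The replicate block left 1 lower gene in the cell cycle list and 3 in Notch, and took the adjusted p of Airn to 0.0536. The shared numbers do not pair the mice. The lower cell cycle genes also numbered 1 under equal column totals, with no filter and with a mean filter, and the lower Notch genes 4 and 3 under equal column totals and with no filter. With equal protein-coding totals 16 named genes called in either setting changed sign: Adam17 (0.60), Ccnd2 (0.18), Cdkn2d (0.29), Commd1 (0.67), Dcn (0.23), Ezh1 (0.70), Gnas (0.54), Hey1 (0.059), Lsp1 (0.64), Nap1l4 (0.35), Notch3 (0.26), Phactr2 (0.12), Rbl2 (0.54), Slc38a4 (0.39), Stag2 (0.16) and Wars (0.82). So did Grb10 (0.73) and Mest (0.31), which have no test, and Sgce, called in neither. The planned count test was not run because the table holds no counts. The depth of the libraries is unknown, which limits Dlk1, Rtl1, Usp29 and other genes near 0.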
